A study of Mus musculus with 18 samples.

Results

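The 8 genes described here encode matrix proteoglycans of the prostate stroma: decorin (Dcn), biglycan (Bgn), asporin (Aspn), lumican (Lum), fibromodulin (Fmod), prolargin (Prelp), osteoglycin (Ogn) and versican (Vcan). They were chosen by symbol, with earlier results of these data known, as 8 of the 55469 gene IDs in each table of normalized counts. Every symbol matched exactly 1 ID. The counts came from total RNA from ventral plus lateral lobes of the prostate, taken from male mice of the strain labelled C56NL/6N, in 18 libraries. All mice carried 1 copy of the TRAMP transgene (TRAMP +/-), in which the probasin promoter drives SV40 T antigens in prostate epithelium, so that the controls also carry the tumour-driving transgene. WT-TRAMP mice were ELAC2+/+. KO-TRAMP mice were ELAC2-/-, with a floxed exon deleted by Pb-Cre, a deletion that the study calls prostate-specific. Stromal cells are the usual source of these proteoglycans, and which cells lost the exon was not tested here. A537T-TRAMP mice were homozygous for the Ala537Thr change in ELAC2 (ELAC2A537T), which is present in every cell. ELAC2 is the nuclease that removes the 3′ trailer from precursor tRNAs. Each line was sampled at 10 and at 30 weeks of age with 3 libraries per line and age, and each mutant line was compared with the WT-TRAMP libraries of its own age.

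Small leucine-rich proteoglycans are short, curved core proteins that bind the surface of collagen fibrils and set fibril spacing and thickness. Several also hold growth factors of the TGF-β family or engage cell-surface receptors. Class I holds decorin, biglycan and asporin, class II holds lumican, fibromodulin and prolargin, and class III holds osteoglycin. Versican belongs to another family, the large proteoglycans that bind hyaluronan through a globular domain and carry many chondroitin sulfate chains. In prostate these proteins are made mainly by fibroblasts and smooth muscle, and decorin and versican have long been studied in the stroma that surrounds prostate tumours.

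Several features of the libraries bear on every result. The libraries held 9380174 to 14830104 recovered reads. The summed normalized count of 9 luminal epithelial markers was at least 25321 in every library and none of the 9 was at 0. Transcripts of the seminal vesicle, a gland removed at dissection, took 9.04% of reads in library 5 and 1.23% in library 6 (A537T-TRAMP, 10 weeks), 1.63% in library 9 (KO-TRAMP, 10 weeks), 4.35% in library 10 and 1.90% in library 12 (WT-TRAMP, 30 weeks), and 5.45% in library 13 and 2.65% in library 15 (A537T-TRAMP, 30 weeks). In the other libraries their share was at most 0.259%. At 30 weeks, library 18 lay between the other KO-TRAMP libraries for 98.5% of the 2554 genes (mean of at least 100) that differed over 2-fold between libraries 16 and 17. Its median position was 0.617 on a scale from 0 (library 16) to 1 (library 17), with quartiles of 0.549 and 0.683. Library 12 lay between libraries 10 and 11 for 95.9% of 835 such genes, at a median position of 0.559 with quartiles of 0.471 and 0.652. In the other groups the most intermediate library lay between its partners for 78.0% to 88.1% of genes, with wider quartiles. The cause was not tested, and the labels name all of them as separate samples. If libraries 12 and 18 are not independent of the others in their groups, the p-values at 30 weeks are too small, so results are also given without them, a choice made after seeing the data. The targeted gene, Elac2, was read at 254 to 301 in KO-TRAMP and 289 to 359 in WT-TRAMP at 10 weeks, and at 249 to 267 and 251 to 319.6 at 30 weeks. The groups overlapped at both ages, and its fitted log2 fold changes were −0.22 (SE 0.14, adjusted p = 0.808) and −0.19 (SE 0.14, adjusted p = 0.522). A count over the whole gene in whole tissue does not isolate the deleted exon or the epithelium, so it does not check the labels.

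Of the 8 genes, 6 lie in pairs on the mouse genome (GRCm38, GENCODE annotation). Dcn (ENSMUSG00000019929.16, chr10:97479609-97518143) and Lum (ENSMUSG00000036446.5, chr10:97565128-97572703) are both on the plus strand, 46.98 kb apart with no coding gene between them. Aspn (ENSMUSG00000021388.14, chr13:49544443-49567565) and Ogn (ENSMUSG00000021390.6, chr13:49608046-49624501) are on the plus strand, 40.48 kb apart, with osteomodulin (Omd) between them, and both overlap Cenpp on the minus strand. Prelp (ENSMUSG00000041577.5, chr1:133910304-133921414, minus strand) and Fmod (ENSMUSG00000041559.7, chr1:134037254-134048277, plus strand) are 115.8 kb apart. Bgn (ENSMUSG00000031375.17) is at chrX:73483602-73495933 on the plus strand, and Vcan (ENSMUSG00000021614.16) is at chr13:89655312-89742509 on the minus strand. Prelp overlaps the antisense gene Gm15851, and Vcan overlaps Gm4117 (antisense) and Gm16318 (a pseudogene) on the other strand. Counting by the authors used strand.

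RefSeq upstream sequence (GRCm38.p6) was at hand for 6 of the genes, and the 250 bases before the annotated start are printed for 4 of them: Bgn, Ogn and Vcan, whose 3 KO-TRAMP libraries lay above all WT-TRAMP libraries at 30 weeks, and Fmod, for which they did not. The TATA box was searched by the letters TATAAA and the GC box by GGGCGG. The AP-1 site was searched by the letters TGACTCA and the Smad-binding CAGA box by CAGACA. All were searched on both strands, and capitals mark every match. Positions are chrX:73483351-73483600 (plus strand), chr13:49607765-49608014 (plus), chr13:89742513-89742762 (minus) and chr1:134037004-134037253 (plus), each written 5′ to 3′ along its gene.
Bgn: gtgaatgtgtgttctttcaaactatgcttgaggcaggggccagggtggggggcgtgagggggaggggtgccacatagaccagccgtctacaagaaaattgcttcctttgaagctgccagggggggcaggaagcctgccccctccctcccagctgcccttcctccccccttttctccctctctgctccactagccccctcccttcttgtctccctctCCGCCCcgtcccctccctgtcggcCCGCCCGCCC
Ogn: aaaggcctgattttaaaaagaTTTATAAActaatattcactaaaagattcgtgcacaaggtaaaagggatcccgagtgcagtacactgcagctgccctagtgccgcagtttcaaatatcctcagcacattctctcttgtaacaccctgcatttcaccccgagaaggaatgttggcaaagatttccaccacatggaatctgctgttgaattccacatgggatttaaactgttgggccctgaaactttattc
Vcan: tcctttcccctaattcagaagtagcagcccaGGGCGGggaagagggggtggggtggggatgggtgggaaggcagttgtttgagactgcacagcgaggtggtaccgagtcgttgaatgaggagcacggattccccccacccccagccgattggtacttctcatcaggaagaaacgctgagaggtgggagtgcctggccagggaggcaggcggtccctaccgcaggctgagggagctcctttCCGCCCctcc
Fmod: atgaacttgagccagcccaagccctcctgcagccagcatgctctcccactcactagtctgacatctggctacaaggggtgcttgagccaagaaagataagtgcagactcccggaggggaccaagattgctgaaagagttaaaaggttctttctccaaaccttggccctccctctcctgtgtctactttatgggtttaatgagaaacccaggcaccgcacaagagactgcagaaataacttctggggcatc
The Bgn sequence holds 3 GC boxes on the opposite strand, starting 34, 10 and 6 bases before the start, of which the last 2 overlap. Vcan holds a GC box 219 bases before the start and another on the opposite strand 10 bases before it. Of 32851 promoter windows of this length, 32.7% hold a GC box. In Ogn the only matches are a pair of overlapping TATA letters 227 and 229 bases before the start, and 12.4% of windows hold that motif. The Fmod window holds none of the 4 motifs, and no printed window holds the AP-1 letters (4.46% of windows) or the CAGA letters (17.1%). These matches describe letters only.

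Levels were compared between genes as normalized counts per kilobase of merged exon. In WT-TRAMP at 30 weeks Dcn was highest, at a mean of 178 per kilobase, followed by Bgn (97.1), Prelp (76.5), Ogn (65.3), Fmod (26.5), Lum (21.0), Vcan (12.1) and Aspn (7.30). Only the steps from Dcn to Bgn and from Ogn to Fmod exceeded the spread of the libraries, and the ranges of all other neighbours overlapped. In KO-TRAMP at 30 weeks Dcn (465 per kilobase), Bgn (212) and Ogn (136) led, Lum (124) came next, and Fmod (18.9) was last. There the ranges of Dcn and Bgn, of Bgn and Ogn, and of Prelp and Vcan did not overlap. Dcn was first in every group. Dividing by the longest transcript instead raised Bgn most, to 222 per kilobase in WT-TRAMP at 30 weeks, since its merged exons span 6099 bases and its longest transcript 2666. Dcn became 221 there, so Dcn and Bgn were nearly level. As normalized with A537T-TRAMP, the same libraries gave 204 for Dcn and 201 for Bgn.

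At 30 weeks, 5 of the 8 genes were higher in all 3 KO-TRAMP libraries than in all 3 WT-TRAMP libraries, beside 10.8% of all 16900 genes tested. The 5 were Dcn, Bgn, Lum, Ogn and Vcan, at 209% to 591% of the WT-TRAMP mean. None of the 8 passed an adjusted p of 0.05. Aspn was higher in 2 of 3 KO-TRAMP libraries, and Fmod and Prelp did not share the pattern. In whole tissue, more cells that make these transcripts and more transcript per cell cannot be told apart. Values below are normalized counts, and fold changes are fitted on log2(normalized count + 1), which understates changes of low genes.

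Among the class I genes, Dcn, which encodes the most studied collagen-binding member, was 1142, 924 and 1049 in WT-TRAMP (libraries 10 to 12). It was 1737, 3601 and 2807 in KO-TRAMP (libraries 16 to 18). Library 16 was the lowest KO-TRAMP value but still above every WT-TRAMP value, and the log2 fold change was 1.33 (SE 0.27, adjusted p = 0.203). For Bgn, the closest relative of decorin, the WT-TRAMP values were 514, 688 and 574 and the KO-TRAMP values 1325, 1253 and 1309. Relative to the mean, the KO-TRAMP libraries varied less for Bgn than for any other member, and Bgn was at 219% of the WT-TRAMP mean. Its log2 fold change was 1.14 (SE 0.13, adjusted p = 0.0501), which ranked 37 of 16900 genes by p and lay just above the threshold. Aspn, which lacks the glycosaminoglycan chain of its relatives, was 16.8, 15.4 and 19.4 in WT-TRAMP and 16.5, 87.5 and 55.3 in KO-TRAMP. Library 16 was inside the WT-TRAMP range, whereas libraries 17 and 18 were far above it, and the log2 fold change was 1.29 (SE 0.63, adjusted p = 0.399).

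Within class II the genes diverged. Lum, a keratan sulfate proteoglycan that regulates fibril diameter, read 71.6, 45.1 and 37.6 in WT-TRAMP and 161, 445 and 306 in KO-TRAMP. All KO-TRAMP libraries exceeded all WT-TRAMP libraries, and its log2 fold change of 2.47 (SE 0.43, adjusted p = 0.136) was the highest of the 8. Fmod, which binds collagen beside lumican, read 119.7, 68.1 and 75.2 against 46.3, 70.0 and 71.0 in KO-TRAMP. The groups overlapped, with library 16 the lowest, and the log2 fold change was −0.47 (SE 0.31, adjusted p = 0.482). It was −0.22 without library 10 and −0.27 without library 16. Prelp, which binds heparan sulfate and anchors basement membrane to connective tissue, read 247, 276 and 305 against 257, 286 and 275. These ranges lay almost on each other, with a log2 fold change of −0.016 (SE 0.14, adjusted p = 0.954).

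Ogn, the class III gene, read 138, 211 and 154 in WT-TRAMP and 351, 364 and 335 in KO-TRAMP. The groups did not overlap, and the log2 fold change was 1.08 (SE 0.19, adjusted p = 0.135). Vcan, the hyaluronan-binding gene, read 279.8, 98.8 and 145 in WT-TRAMP and 703, 429 and 551 in KO-TRAMP. Library 16 was the highest for Vcan, while it was the lowest KO-TRAMP library for Dcn, Lum and Aspn, and the log2 fold change of Vcan was 1.79 (SE 0.40, adjusted p = 0.245).

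**Figure D1:**
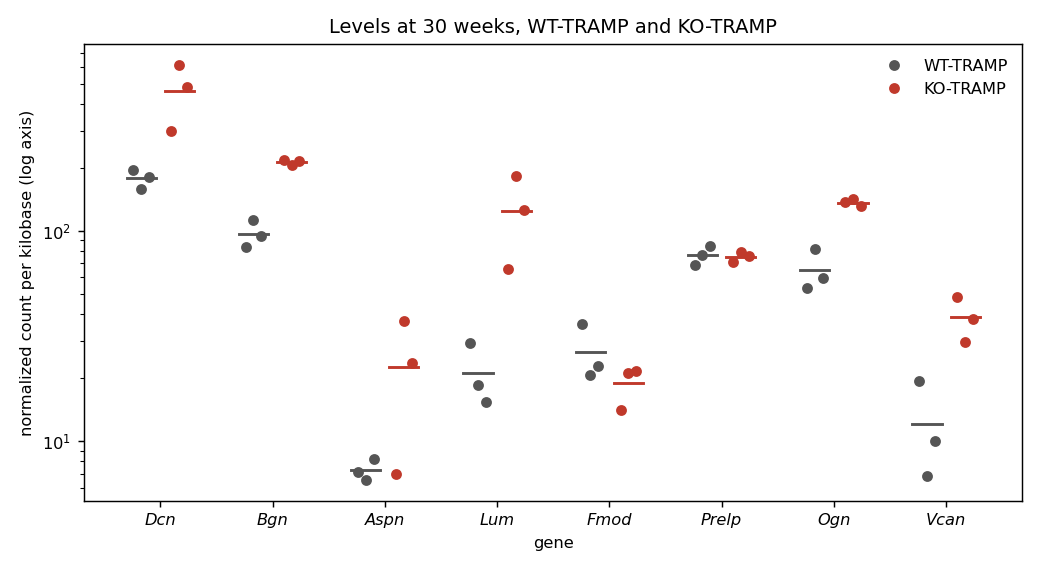
Normalized count per kilobase of merged exon (log axis) of the 8 genes in the 3 WT-TRAMP (grey) and 3 KO-TRAMP (red) libraries at 30 weeks, with points for libraries and bars for means. The red points lie above the grey ones without overlap for Dcn, Bgn, Lum, Ogn and Vcan, and the points overlap for Aspn, Fmod and Prelp.

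Across all genes, 0.213% of the 16900 tested passed the adjusted threshold in this comparison, 13.5% had an unadjusted p under 0.05, and 10.8% had all 3 KO-TRAMP libraries above all WT-TRAMP libraries. Of the 8 members 0 passed by limma, 5 (Dcn, Bgn, Lum, Ogn and Vcan) had an unadjusted p under 0.05, and the same 5 did not overlap. The median log2 fold change of the 8 was 1.22, against 0.010 over all genes tested. As the members were chosen with earlier results of these data known, these values describe the set and do not test it. On the recovered reads, edgeR's quasi-likelihood test called 0 of the 8 (6 at an unadjusted p under 0.05), beside 15 called genes in all. DESeq2 called 5 of the 8, among 805 called genes. In every comparison the share of all genes at an unadjusted p under 0.05 was obtained for the main limma fit alone. Leaving out library 16 gave 5 calls, with Aspn in and Vcan out, among 3064 called genes. The p-values of that fit are too small if library 18 is not independent of the KO-TRAMP library left beside it. Without libraries 12 and 18 the log2 fold changes were 1.28 for Dcn, 1.11 for Bgn, 2.21 for Lum, 1.06 for Ogn and 1.72 for Vcan, with 0 members called by limma and 5 at an unadjusted p under 0.05.

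**Figure D2:**
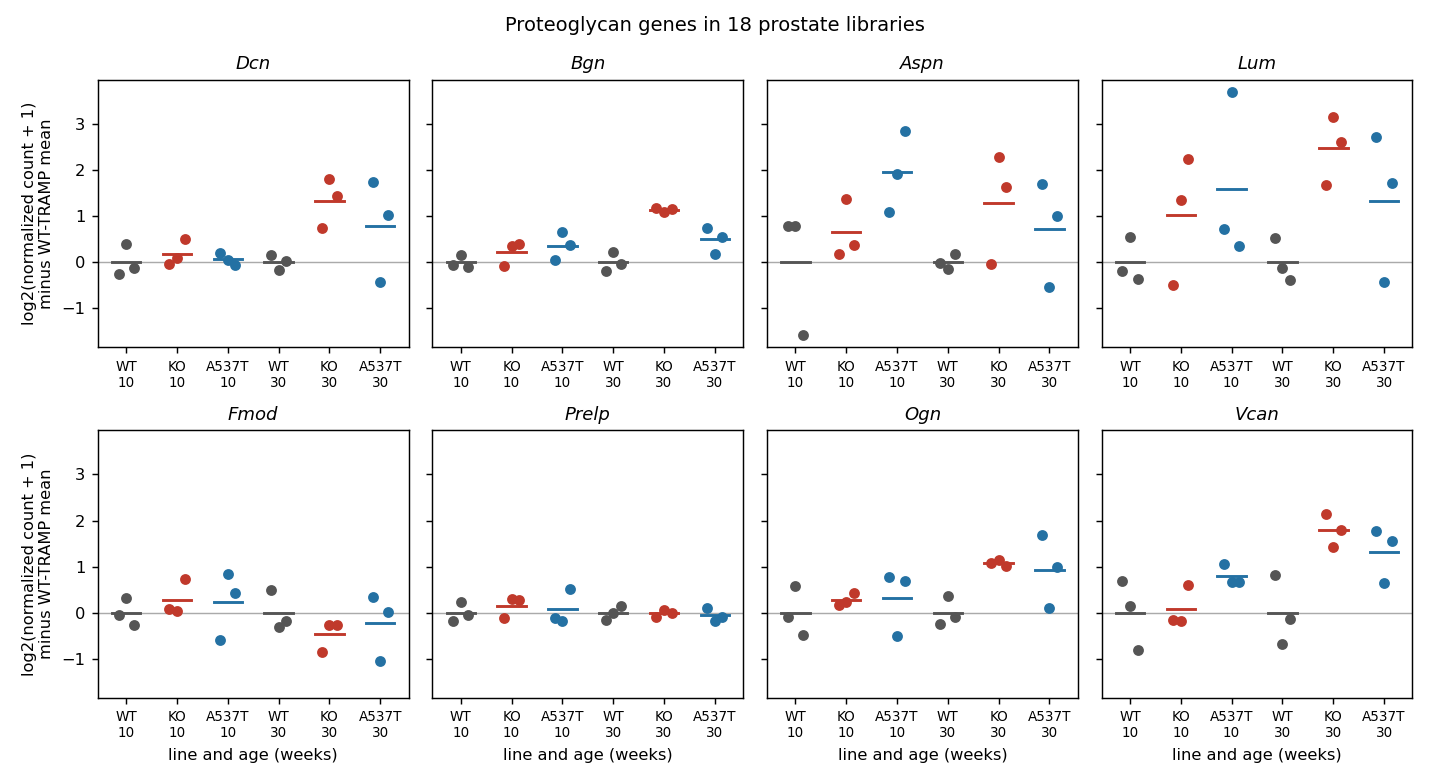
Each panel is a gene, and each point is 1 library, given as log2(normalized count + 1) minus the mean of the WT-TRAMP libraries of its table (WT-TRAMP points averaged over their 2 tables), with bars for group means. At 30 weeks the KO-TRAMP points of Dcn, Bgn, Lum, Ogn and Vcan stand above the WT-TRAMP points, and the A537T-TRAMP points spread more widely.

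Markers of other cell types also differed at 30 weeks. The summed count of 8 fibroblast markers (none a member or a collagen) was 891, 690.0 and 792 in WT-TRAMP and 1505, 2179 and 1877 in KO-TRAMP, so these groups did not overlap either. Of the 8 fibroblast markers 0 passed, 6 were higher at an unadjusted p under 0.05, led by Pdgfra at 0.95 (SE 0.16, adjusted p = 0.117) and Cd34 at 1.64 (SE 0.31, adjusted p = 0.170), and the median was 1.20. The 6 macrophage markers summed to 1279, 1037 and 1070.3 in WT-TRAMP and 2762, 2224 and 2601 in KO-TRAMP, and C1qb, a complement subunit of macrophages, rose by 1.09 (SE 0.11, adjusted p = 0.0415). The 6 endothelial markers summed to 516, 409 and 519 in WT-TRAMP against 677, 3335 and 2272 in KO-TRAMP, and 5 were higher at an unadjusted p under 0.05, led by Cdh5 at 0.93 (SE 0.18, adjusted p = 0.177) and Emcn at 1.71 (SE 0.35, adjusted p = 0.213). Smooth muscle markers summed to 25285, 14875 and 19630.5 in WT-TRAMP against 7488, 36579.9 and 25284 in KO-TRAMP, with library 16 the lowest of all. Library 16 combined the least smooth muscle signal with the highest Vcan and Bgn and a middle KO-TRAMP value of Ogn. Its values of Dcn, Lum, Aspn, Fmod and Prelp were the lowest of KO-TRAMP. Neuroendocrine markers summed to 969, 3.84 and 481 in WT-TRAMP and 4.12, 14056 and 8797 in KO-TRAMP, and with library 16 as the sole KO-TRAMP library the log2 fold changes were 1.17 for Bgn, 1.09 for Ogn, 2.14 for Vcan, 0.75 for Dcn, 1.68 for Lum and −0.052 for Aspn. Without the WT-TRAMP libraries rich in seminal vesicle transcripts (10 and 12), library 11 was the sole WT-TRAMP library, and they were 0.91 for Bgn and 1.49 for Dcn. Against the WT-TRAMP mean, library 11 stood at 0.35 in log2 units for Ogn, −0.13 for Lum, −0.68 for Vcan and −0.15 for Aspn. The fold change was therefore smaller for Ogn and larger for Lum, Vcan and Aspn. Of 9 luminal markers 1 was higher and 5 were lower at an unadjusted p under 0.05 (median −0.88), with Msmb at −0.97 (SE 0.27, adjusted p = 0.325). Of 4 adipocyte markers tested 3 were lower (median −3.34), with Plin1 at −3.43 (SE 0.72, adjusted p = 0.222) and Cidec at −4.14 (SE 0.96, adjusted p = 0.253). No marker of smooth muscle (median 0.13), neuroendocrine cells (2.08) or seminal vesicle (−0.23) reached that level. None of the fibroblast, smooth muscle, endothelial or macrophage markers was at 0 in any library, and the part of cell composition in the proteoglycan values was not tested.

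**Figure D3:**
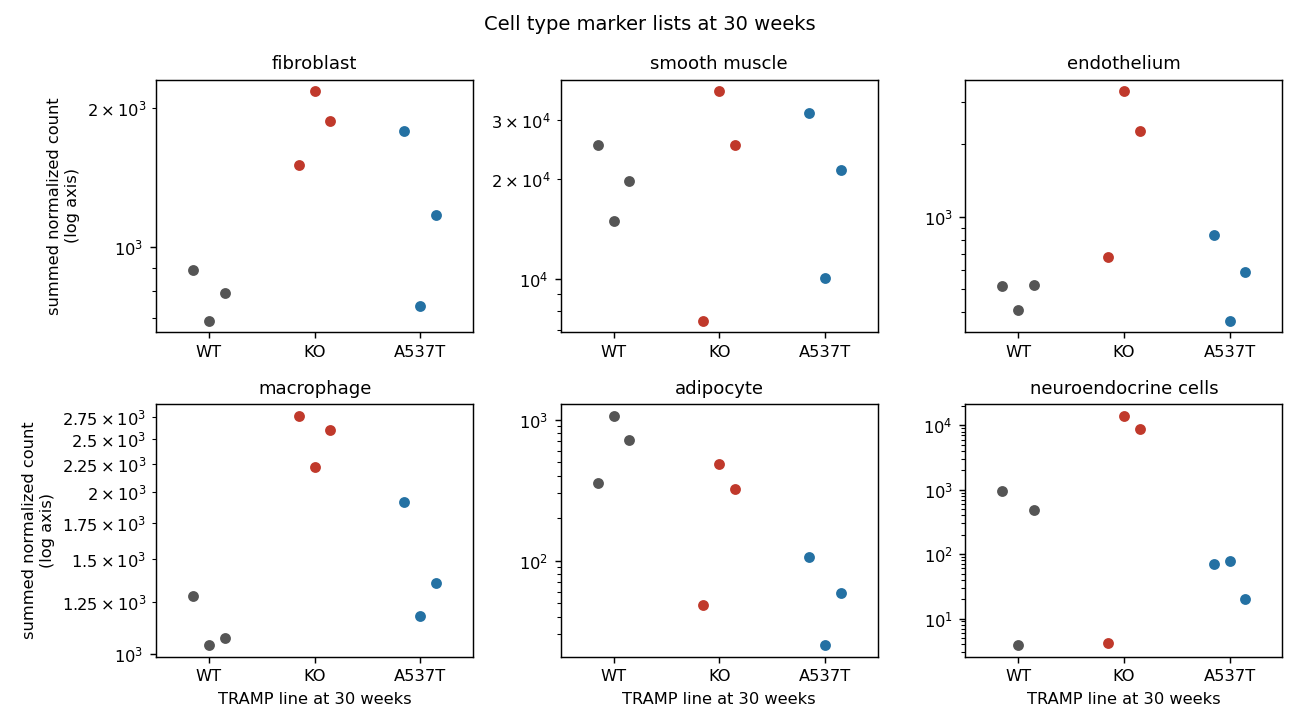
Summed normalized counts (log axis) of 6 lists of cell type markers in the libraries at 30 weeks, with WT-TRAMP in grey, KO-TRAMP in red and A537T-TRAMP in blue (A537T-TRAMP values come from their own table). Fibroblast, endothelial and macrophage sums of KO-TRAMP lie above those of WT-TRAMP, while smooth muscle and neuroendocrine sums overlap.

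In A537T-TRAMP at 30 weeks the means of 6 genes were above WT-TRAMP, but no gene separated the groups, and library 14 stayed within or below the WT-TRAMP range of every gene. Dcn read 1058, 849 and 964 in WT-TRAMP and 3160.0, 711 and 1949.8 in A537T-TRAMP libraries 13 to 15. Library 13 was highest and library 14 was below every WT-TRAMP library. Lum showed the same order, at 65.3, 41.3 and 34.1 against 301, 33.4 and 151, and Aspn read 15.8, 14.3 and 18.1 against 54.1, 10.7 and 32.9. Bgn (469, 622 and 519 against 896, 603 and 781), Ogn (128, 193 and 141 against 486, 163 and 303) and Vcan (260.3, 91.5 and 133 against 507, 229 and 432) had a library 14 inside the WT-TRAMP range and the others above it. Fmod read 113, 63.7 and 70.4 against 101, 38.2 and 80.7, and Prelp 233, 258 and 285 against 278, 228 and 241. For both the groups overlapped.

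The fitted log2 fold changes were 1.32 (SE 0.43, adjusted p = 0.666) for Vcan, 0.93 (SE 0.38, adjusted p = 0.684) for Ogn and 0.49 (SE 0.17, adjusted p = 0.673) for Bgn, and these 3 had an unadjusted p under 0.05. Without library 12 none of the 8 reached that level, with 1.25 for Vcan, 0.88 for Ogn and 0.47 for Bgn. It was also 0 of 8 without library 13 or 15, 1 without library 10, 2 without library 11 and 6 without library 14. In the fit with all libraries, the log2 fold changes of Dcn (0.78), Lum (1.33), Aspn (0.72), Fmod (−0.23) and Prelp (−0.055) did not reach that level. The 8 had a median log2 fold change of 0.75, against 0.0002 over all genes tested. Of all 16261 genes tested, 0% passed the adjusted threshold, 7.21% had an unadjusted p under 0.05 and 7.36% had every A537T-TRAMP library above every WT-TRAMP library. By limma 0 of the 8 passed, and 0 passed by edgeR or DESeq2 (4 at an unadjusted p under 0.05 by each). Without library 14 the log2 fold changes were 2.21 for Lum, 1.38 for Dcn, 1.34 for Aspn and 1.66 for Vcan, and again 0 passed. Library 14 was also the A537T-TRAMP library with the lowest share of seminal vesicle transcripts, and with it alone the log2 fold changes were −0.42 for Dcn, −0.43 for Lum, 0.18 for Bgn and 0.64 for Vcan. Fibroblast markers summed to 828, 639 and 737 in WT-TRAMP and 1789, 743 and 1169 in A537T-TRAMP, so libraries 13 and 15 were high and library 14 was inside the WT-TRAMP range for this list too. Smooth muscle markers, at 23849, 13908 and 18376 in WT-TRAMP and 31486, 10062 and 21151 in A537T-TRAMP, were highest in library 13 and lowest in library 14. Adipocyte markers summed to 333, 993 and 669 in WT-TRAMP and 107, 25.04 and 58.8 in A537T-TRAMP, where 3 of the 5 with a row were at 0 in library 14, and all 4 tested were lower at an unadjusted p under 0.05 (median −3.62), with 0 past the adjusted threshold. The part of composition in these values was not tested. Both 30-week comparisons use the same WT-TRAMP libraries, so their fold changes are not independent.

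**Figure D4:**
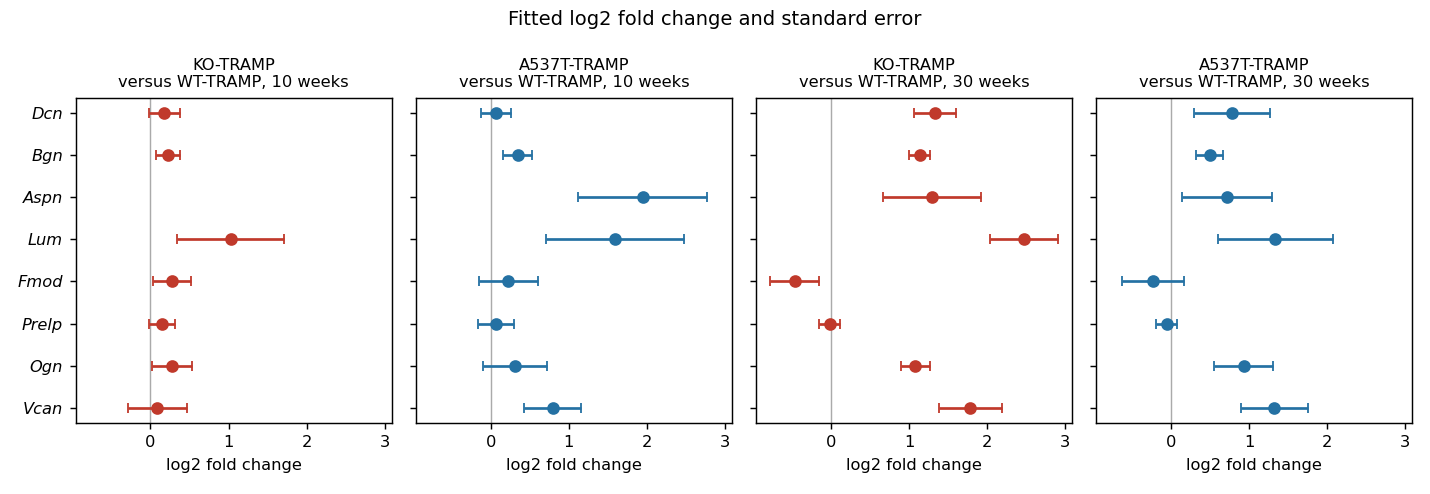
Fitted log2 fold change (points) with its standard error (bars) for the 8 genes in the 4 comparisons, from limma on log2(normalized count + 1), with KO-TRAMP in red and A537T-TRAMP in blue. At 30 weeks KO-TRAMP values reach 2.47 for Lum, Fmod lies at −0.47 and Prelp at −0.016, and Aspn has no KO-TRAMP value at 10 weeks because its mean was under 10.

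At 10 weeks no gene separated KO-TRAMP from WT-TRAMP. Dcn read 795, 1249 and 867 in WT-TRAMP (libraries 1 to 3) against 921, 1007 and 1338 in KO-TRAMP (libraries 7 to 9). Bgn read 408, 476 and 399 against 404, 544 and 557, and Lum read 10.5, 17.5 and 8.81 against 8.09, 31.3 and 58.8. Library 9 was the highest KO-TRAMP library for all 3, and it had the highest share of seminal vesicle transcripts in its group. Vcan read 296, 204 and 105 against 165, 163 and 281, and the ranges overlapped. The 7 genes tested had log2 fold changes between 0.085 (Vcan) and 1.03 (Lum), with adjusted p-values of at least 0.826. Aspn, at 10.5, 10.0 and 1.10 against 6.29, 15.7 and 7.35, was under the mean of 10 and was not tested. Of 15451 genes 0.0129% passed, 6.64% had an unadjusted p under 0.05 and 5.77% had all KO-TRAMP libraries above all WT-TRAMP libraries. Among the members, 0 passed by limma, edgeR or DESeq2, and 0 had an unadjusted p under 0.05 by any of them. At that level 6 of 8 smooth muscle markers (median 0.80), 2 of 8 fibroblast markers (median 0.55) and 4 of 7 seminal vesicle markers (median 5.71) were higher in KO-TRAMP, with 0 past the adjusted threshold, and their part in the member values was not tested.

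In A537T-TRAMP at 10 weeks, Aspn was the only gene without overlap. It read 8.84, 9.21 and 1.01 in WT-TRAMP and 11.4, 21.0 and 41.3 in A537T-TRAMP libraries 4 to 6, all of them higher, at a log2 fold change of 1.95 (SE 0.82, adjusted p = 0.600), with an unadjusted p of 0.0488. These are few reads, and library 3 held a single Aspn read. Vcan read 244, 168 and 85.9 against 318, 241 and 241, where only library 1 reached the mutant range, and its log2 fold change was 0.79 (SE 0.37, adjusted p = 0.600). Lum read 8.84, 16.1 and 8.08 against 17.9, 148 and 13.8, at a log2 fold change of 1.59 (SE 0.88, adjusted p = 0.606), and library 5, with 9.04% of its reads from seminal vesicle transcripts, was far above all others. Dcn (711, 1117 and 772 against 976, 876 and 819) and Bgn (369.5, 432 and 359.6 against 396, 602 and 495) overlapped, at log2 fold changes of 0.064 and 0.35. Ogn (0.31), Fmod (0.23) and Prelp (0.071) overlapped as well. Of 15438 genes 0.00648% passed, 7.89% had an unadjusted p under 0.05 and 6.92% had all A537T-TRAMP libraries above all WT-TRAMP libraries. Of the members 0 passed by limma (1 at an unadjusted p under 0.05), edgeR (2) or DESeq2 (2). With library 4 as the sole A537T-TRAMP library, Lum was at 0.71 and Fmod at −0.60, and Aspn was under the mean of 10 and was not tested. All 8 smooth muscle markers, 4 of 8 fibroblast markers (median 0.96), 3 of 6 endothelial markers (median 1.08) and 7 of 7 seminal vesicle markers (median 8.68) were higher at an unadjusted p under 0.05 in this comparison, with 0 past the adjusted threshold, and their part was not tested.

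Whether an effect differed between the ages was tested as the difference of the 30-week and 10-week log2 fold changes. For KO-TRAMP the difference was 0.92 (SE 0.21, adjusted p = 0.212) for Bgn, 1.15 (SE 0.36, adjusted p = 0.282) for Dcn, 1.70 (SE 0.61, adjusted p = 0.323) for Vcan and 0.80 (SE 0.34, adjusted p = 0.363) for Ogn. These 4 of 8 had an unadjusted p under 0.05 by limma and 0 passed, beside 13.1% of 16431 genes at that level and 0% past the adjusted threshold. Lum differed by 1.45 (SE 0.88, adjusted p = 0.478) and Aspn by 0.65 (SE 1.06, adjusted p = 0.804). Fmod, at 0.28 at 10 weeks and −0.47 at 30 weeks, differed by −0.74 (SE 0.40, adjusted p = 0.437), and Prelp by −0.16. Without library 16, Dcn and Bgn passed among 1944 genes. The p-values of that fit are too small if library 18 is not independent of the KO-TRAMP library left beside it at 30 weeks. Without libraries 12 and 18 none of the 8 passed and 2 had an unadjusted p under 0.05. For A537T-TRAMP 0 of 8 passed and 0 had an unadjusted p under 0.05, beside 0% and 6.36% of 15941 genes, and the differences lay between −1.23 (Aspn) and 0.71 (Dcn).

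The make-up of the 8 genes was then compared within each library, where shares and ratios do not depend on the size factor. Together they summed to 2327 to 2529 normalized counts in WT-TRAMP and 4596 to 6535 in KO-TRAMP at 30 weeks, which was 0.0198% to 0.0222% and 0.0397% to 0.0605% of all counts. Dcn supplied 32.8% to 39.6% of the summed level per kilobase in WT-TRAMP and 34.7% to 47.0% in KO-TRAMP. Fmod supplied 4.27% to 7.33% and 1.61% to 1.94%, and Prelp 13.9% to 17.8% and 6.02% to 8.29%, so the shares of both were lower in every KO-TRAMP library. A share also falls when the other genes rise. The counts of Fmod and Prelp overlapped between the groups in both lines at 30 weeks. In A537T-TRAMP at 30 weeks Fmod supplied 2.61% to 3.14%, against 4.35% to 7.45% in WT-TRAMP of that table, again without overlap, whereas Prelp (6.59% to 16.04% against 14.1% to 18.1%) and Lum (3.47% to 10.5% against 3.20% to 5.83%) overlapped. At 10 weeks Fmod supplied 8.16% to 9.01% in WT-TRAMP and 7.53% to 10.0% in KO-TRAMP, which overlap. Lum supplied 3.24% to 5.92% and 7.64% to 13.9% at 30 weeks. Bgn was 45.0%, 74.5% and 54.8% of the Dcn count in WT-TRAMP at 30 weeks and 76.3%, 34.8% and 46.6% in KO-TRAMP. Vcan was 24.6%, 10.8% and 13.9% of it in WT-TRAMP and 40.5%, 11.9% and 19.7% in KO-TRAMP. Both ratios overlapped between the groups. In log2 units the mutant minus WT-TRAMP difference of Bgn to Dcn was 0.042 in KO-TRAMP at 10 weeks and −0.19 at 30 weeks, and 0.28 and −0.29 in A537T-TRAMP. That of Vcan to Dcn was −0.091 and 0.46 in KO-TRAMP, and 0.73 and 0.54 in A537T-TRAMP. The exact two-sided permutation p of the 8 differences ran from 0.3 to 0.9 over 3 against 3 libraries, where the smallest possible value is 0.1.

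**Figure D5:**
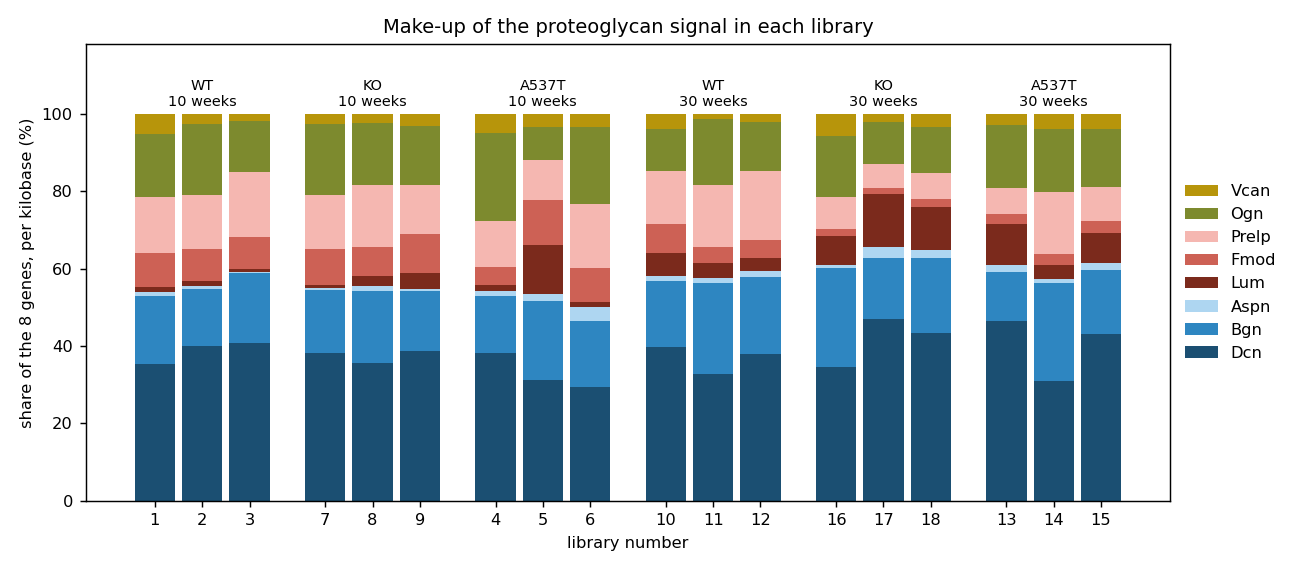
Share of each gene (%) in the summed per-kilobase level of the 8 genes, 1 bar per library, ordered by group (WT-TRAMP bars from the KO-TRAMP tables). Dcn and Bgn form the base of every bar, and Fmod and Prelp take smaller shares in KO-TRAMP at 30 weeks.

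Genes that build, cut or bind these proteoglycans were followed in KO-TRAMP at 30 weeks. Of 13 partners and receptors tested, 4 rose and 0 fell, all 4 of them fibrillar collagens: Col1a2 by 1.77 (SE 0.096, adjusted p = 0.0135), Col3a1 by 2.71 (SE 0.25, adjusted p = 0.0401), Col5a2 by 2.27 (SE 0.23, adjusted p = 0.0415) and Col1a1 by 1.87 (SE 0.20, adjusted p = 0.0415). Each read higher in every KO-TRAMP library, for example Col1a2 at 923, 976 and 1024 in WT-TRAMP and 3538, 3165 and 3249 in KO-TRAMP. These calls, and that of C1qb, were lost without library 10, 12 or 18, and without libraries 12 and 18 together, when 0 genes passed. Without library 11 just 2 genes passed in all, so at least 3 of the 5 were lost there too, and without library 17 there were 13 called genes. In the remaining lists 0 genes passed. Across all 16900 genes tested in this comparison by limma, 0.213% passed and 13.5% had an unadjusted p under 0.05. Among 8 proteases the smallest p-values were those of Adamts5, at 1.56 (SE 0.22, adjusted p = 0.0778), and Adamts1, at 0.92 (SE 0.23, adjusted p = 0.292), both of which encode enzymes that cleave versican, and 4 of the 8 were higher at an unadjusted p under 0.05. Of 27 genes of glycosaminoglycan chain synthesis 8 were higher and 2 lower at that level, led by Papss1, which makes the sulfate donor, at 0.59 (SE 0.12, adjusted p = 0.205), and Chst11, a chondroitin sulfotransferase, at 1.89 (SE 0.52, adjusted p = 0.325). Among 18 other proteoglycan core proteins 3 were higher and 3 lower, with Sdc1 (syndecan) at 0.76 (SE 0.14, adjusted p = 0.140) and Srgn (serglycin) at 1.06 (SE 0.30, adjusted p = 0.327). Of 7 other small leucine-rich proteoglycans 1 was higher, Epyc (epiphycan), at 2.19 (SE 0.59, adjusted p = 0.313), followed by Podn (podocan), at 0.95 (SE 0.39, adjusted p = 0.369). Of 5 hyaluronan-binding and related genes Has2, a hyaluronan synthase, was higher at 2.81 (SE 0.93, adjusted p = 0.342), followed by Hapln4 at −1.79 (SE 0.80, adjusted p = 0.384). Median log2 fold changes were 1.48 for partners and receptors, 0.80 for proteases, 0.16 for chain synthesis, 0.18 for other core proteins, 1.26 for the other small leucine-rich proteoglycans and 0.17 for the hyaluronan group. In the other 3 comparisons with WT-TRAMP and in both differences between ages, 0 genes of these 6 lists or of the marker lists passed by limma, with between 0 and 7 of each of the 6 lists at an unadjusted p under 0.05.

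The genes whose pattern over the 18 libraries was most like that of each member were taken from 9339 genes with a mean of at least 100 in every table, with each library expressed against the WT-TRAMP mean of its table. For Bgn they were Col1a2 (r = 0.94) and Sparc (r = 0.94), both matrix genes. For Vcan they were Crispld2 (r = 0.92) and Col6a2 (r = 0.88), and for Lum Igfbp7 (r = 0.91) and Nid1 (r = 0.88). Serping1, the C1 inhibitor, led for both Dcn (r = 0.90) and Ogn (r = 0.88), followed by Tmem33 (r = 0.88) and Cop1 (r = 0.85). Aspn was most like Cavin1 (r = 0.86) and Ptprb (r = 0.83), Fmod most like Camk2g (r = 0.87) and Rab11fip2 (r = 0.86), and Prelp most like Ahnak (r = 0.74) and Srf (r = 0.69). The points share libraries, composition and the scale of each table, and the values are descriptions without a test. Among the 8 members the highest r were those of Dcn with Ogn (0.80), Lum with Bgn (0.80) and Dcn with Bgn (0.77), whereas Fmod and Prelp stood at 0.40 or below with every member but Prelp with Aspn (0.43).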

How the data were processed

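Total RNA of 18 prostate samples was sequenced. Per the labels and the study's methods, the authors trimmed reads (Trim Galore 0.4.1, cutadapt 1.18), aligned them with STAR 2.7.3a to GRCm38.p6, counted genes by strand with Salmon, and deposited 4 tables of DESeq2 (1.26) normalized counts, the signal used here, 1 per mutant line and age, each with its WT-TRAMP libraries. Columns of shrunken fold changes, their errors and s-values from the authors' own comparisons were not used. No sample column was left unused (0). WT-TRAMP libraries were recognised by headers common to both tables of an age.

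Every value divided by the smallest step of its library gave whole reads (100% within 0.001). The main test was limma 3.58.1 (R 4.3.3; lmFit and eBayes with trend) on log2(normalized count + 1), genes with a mean of at least 10, two-sided, Benjamini-Hochberg over all genes tested, threshold 0.05. Per the study's methods the 3 libraries of a group are biological replicates. edgeR 4.0.16 and DESeq2 1.42.0 were run on the recovered reads as alternatives, beside another pseudocount, no filter, TMM scaling, array weights and each library left out. Differences between ages used the 2 tables of a line together. The fit was tested on simulated counts, drawn for independent libraries with a common dispersion and no differences in composition. That test does not cover the seminal vesicle shares or the intermediate libraries of these data. Scripts also used Python 3.11.15, pandas 2.3.3 and scipy 1.17.1. The members and the 14 lists (151 genes, of which 3 were not analysed here) were chosen with earlier results of these data known. Further list genes with a mean under 10 in a comparison were not tested in it. Named were all 8 members, Elac2, in each list the genes past the threshold or else the 2 with the smallest p in KO-TRAMP at 30 weeks, and the 2 genes most like each member, and 1 gene that the rule names is not reported here. Library numbers follow the study's groups: WT-TRAMP 1 to 3, A537T-TRAMP 4 to 6 and KO-TRAMP 7 to 9 at 10 weeks, and WT-TRAMP 10 to 12, A537T-TRAMP 13 to 15 and KO-TRAMP 16 to 18 at 30 weeks.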

Additional observations from a re-analysis of the deposited data

Results flagged for a closer look

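Fmod in KO-TRAMP lay on opposite sides of WT-TRAMP at the 2 ages. At 10 weeks every KO-TRAMP library was above the WT-TRAMP mean, at a log2 fold change of 0.28, and at 30 weeks every KO-TRAMP library was below it, at −0.47. The test of the difference gave −0.74 (SE 0.40, adjusted p = 0.437) by limma, so it did not pass the threshold. The value at 30 weeks rested partly on single libraries, being −0.22 without library 10, −0.27 without library 16 and −0.15 without libraries 10 and 12. The value at 10 weeks was 0.15 without library 3, 0.056 without library 9 and 0.43 without library 2. At both ages the KO-TRAMP and WT-TRAMP ranges overlapped.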

How the results depend on the processing

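No paired analysis was possible because the column headers carry no replicate numbers. In KO-TRAMP at 30 weeks the number of members past the threshold, 0 in the limma test, was 1 (Bgn) with a pseudocount of 5, with no filter or with TMM scaling, 5 with DESeq2 and 6 with array weights, and 0 to 5 with 1 library left out, the 5 without library 16. The p-values without library 16 are too small if library 18 is not independent of the KO-TRAMP library left beside it. Array weights stopped before convergence and called 10748 genes in all. They also gave 5 members in A537T-TRAMP at 30 weeks (3388 genes), 4 for the difference between ages in KO-TRAMP (5188 genes) and 0 for that in A537T-TRAMP (1645 genes), and leaving out 1 library gave 0 to 2 for the KO-TRAMP difference. At 10 weeks 0 members passed under every alternative. DESeq2 called 805 genes in KO-TRAMP at 30 weeks, against 36 by limma and 15 by edgeR. The cause of these differences was not tested.

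Of the log2 fold changes of members, 371 kept their direction and side of the threshold, 24 came to pass it and 24 changed sign. Signs changed with 1 library left out for Vcan in KO-TRAMP (−0.32 to 0.42) and Dcn (−0.064 to 0.26), Prelp (−0.15 to 0.19) and Fmod (−0.084 to 0.64) in A537T-TRAMP at 10 weeks, and for Prelp in KO-TRAMP (−0.093 to 0.058) and Fmod (−0.51 to 0.18) and Prelp (−0.14 to 0.016) in A537T-TRAMP at 30 weeks. The libraries whose absence turned the sign were 3 and 9 for Vcan, 1, 3 and 4 for Dcn, 1 and 6 for Prelp and 5 for Fmod at 10 weeks, 12 and 16 for Prelp in KO-TRAMP, and 10 and 14 for Fmod and 12 and 14 for Prelp in A537T-TRAMP at 30 weeks. Array weights gave −0.11 for Dcn in A537T-TRAMP at 10 weeks and 0.12 for Fmod at 30 weeks. Of the settings chosen after seeing the data, leaving out libraries 5 and 6 gave −0.60 for Fmod and −0.12 for Prelp, 17 and 18 gave −0.052 for Aspn, 12 and 18 gave 0.052 for Prelp, 10 and 12 gave 0.089 for Fmod in A537T-TRAMP, and 13 and 15 gave −0.42 for Dcn, −0.43 for Lum and −0.54 for Aspn. Where 1 library stood for a line, it was assumed to vary like the other group. For the difference between ages in A537T-TRAMP, Lum was at 1.40 with array weights and −0.94 to 0.80 with 1 library left out (above 0 without library 5, 10 or 14), Bgn at −0.0088 to 0.30 (below 0 without library 4) and Prelp at −0.25 to 0.090 (above 0 without library 6). With 1 library left out, the difference in the log2 ratio of Bgn to Dcn was −0.074 to 0.14 and −0.50 to 0.069 in KO-TRAMP at 10 and 30 weeks and −0.73 to 0.060 in A537T-TRAMP at 30 weeks, and that of Vcan to Dcn was −0.43 to 0.38 and −0.010 to 0.87 in KO-TRAMP. With 3 libraries per group, and Aspn at 1 to 12 reads in WT-TRAMP at 10 weeks, small differences were not detectable.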
